A study of Arabidopsis thaliana with 39 samples.

Results

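Roots of Arabidopsis thaliana kept for 3 further h on full nutrient medium were compared with roots collected at time 0, which gives the earliest changes that the series can show without any nutrient being withdrawn. All plants were Columbia-0 wild type (Col-0) and had grown for 10 days on full medium with 1 mM phosphate. The comparison uses 6 of the 39 arrays, namely the 3 titled as full nutrient at 3 h and the 3 titled as the time 0 control. The remaining arrays hold full medium at 6 and 9 h and media lacking phosphate, iron or both at 3, 6 and 9 h, with 3 arrays in each of the 13 groups. Changes are described for the rows that the platform annotation assigns to exactly 1 gene, 16746 of the 28501 rows on the array (58.8%), which stand for 16552 genes. A further 758 rows list several genes and 10997 list none.

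The labels spell out a move to new medium for the plants deprived of a nutrient, and for full medium they give only the added hours on it. Whether the plants on full medium were moved as well is not stated, and no group of the later hours is labelled as left in place. Any handling, the added age and the hour of collection therefore cannot be told apart here. The replicates carry the numbers 1 to 3, and no label states that each is a culture of its own, so p-values measure only the spread between these samples, which may be technical. Levels are the deposited values, read as log2 because of their range (0.141 to 12.8). That base is inferred, and each fold change below depends on it.

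Moving a seedling to fresh medium touches, tilts and briefly exposes the root, and genes for calcium signalling and stress factors are known to answer such handling within minutes to hours. Over the same hours the circadian clock changes the root transcriptome without any handling. Evening genes such as GIGANTEA (GI) climb through the day while morning genes decline. Auxin, the hormone that sets root growth, is buffered by enzymes of the GH3 family, whose genes it induces.

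The 6 arrays were alike in scale, and the typical row did not shift, with a median difference of -0.01 over all rows. Root-mean-square differences were 0.423 to 0.440 within time 0, 0.401 to 0.545 within the 3 h group and 0.343 to 0.540 between the groups, and the closest pair of all was replicate 2 of time 0 and replicate 2 at 3 h. The tissue label could be checked on few genes. A gene is called measured here if it had a row with exactly 1 gene, and others may lie in rows that list several genes or none. Of 20 root cell markers 2 were measured, the root hair expansins EXPA7, at 6.18, 5.13 and 5.16 in replicates 1 to 3 of time 0 and 5.67, 4.67 and 4.21 at 3 h, and EXPA18, at 5.84, 4.61 and 4.75 and 5.20, 4.17 and 3.90. Both were lowest in replicate 3 at 3 h and neither difference passed (-0.64 and -0.64, limma adjusted p = 0.629 and 0.654). Of 11 photosynthesis markers of shoots 2 were measured. The gene of Rubisco activase, RCA, stood at 6.86, 6.42 and 8.50 at time 0 and 5.88, 7.06 and 7.97 at 3 h, and the antenna protein gene LHCB4.1 at 4.32, 4.24 and 6.20 and 4.31, 5.01 and 6.09. Both were highest in replicate 3 of each group. No value of any marker was 0, which says nothing about detection, since the lowest deposited value was 0.141. The sum of the log2 levels of the shoot markers ranged from 10.7 to 14.7 at time 0 and from 10.2 to 14.1 at 3 h. That of the root markers ranged from 9.73 to 12.0 and from 8.11 to 10.9.

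After 3 h, 72 genes differed from time 0, 39 of them higher and 33 lower. Limma called 164 of all rows at an adjusted p under 0.05, which is 0.575% (89 higher, 0.312%, and 75 lower, 0.263%), and 0.430% of the rows with 1 gene (0.233% higher and 0.197% lower). An unadjusted p under 0.05 was reached by 2733 rows, 1503 of them with 1 gene. Among rows with 1 gene, the largest rise was that of AT1G56300, which encodes a chaperone of the DnaJ type, at 8.61-fold. The cation exchanger gene CHX16 followed at 4.58-fold. The largest falls among these rows were those of SIS, a salt-induced gene, at 3.04-fold and of AT1G64500, of a glutaredoxin family, at 2.84-fold. In tissue RNA, fewer cells of a type and less RNA per cell cannot be told apart.

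The changes were moderate in size. Rises ran from 0.49 to 3.11 on the log2 scale with a median of 1.07, and 23 of the 39 were at least 2-fold. Falls ran from -0.58 to -1.60 with a median of -0.91, and 14 of the 33 were at least 2-fold. The rising genes had a median level of 3.86 at time 0 and 5.43 at 3 h, against 5.59 and 4.63 for the falling genes. The 3 arrays at 3 h lay wholly on the side of the change for 38 of the 39 rises and all 33 falls, where 5.63% of all rows were wholly higher and 7.39% wholly lower. The exception was AT3G46280, at 5.36, 6.43 and 5.55 at time 0 and 7.29, 6.94 and 6.31 at 3 h. The genes were called on these same arrays, so the separation of the groups is no independent support for the calls. The lowest levels were those of 4 genes, with a mean below the first quartile of time 0 values (1.76): AT1G50790 at time 0, and JAL33, AT2G30690 and AT1G26790 at 3 h. By a wider cut, 3 of the rises and 12 of the falls lay in dim rows, with a mean over all 39 arrays below 3.414. A low level limits what can be read from these genes.

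**Figure D1:**
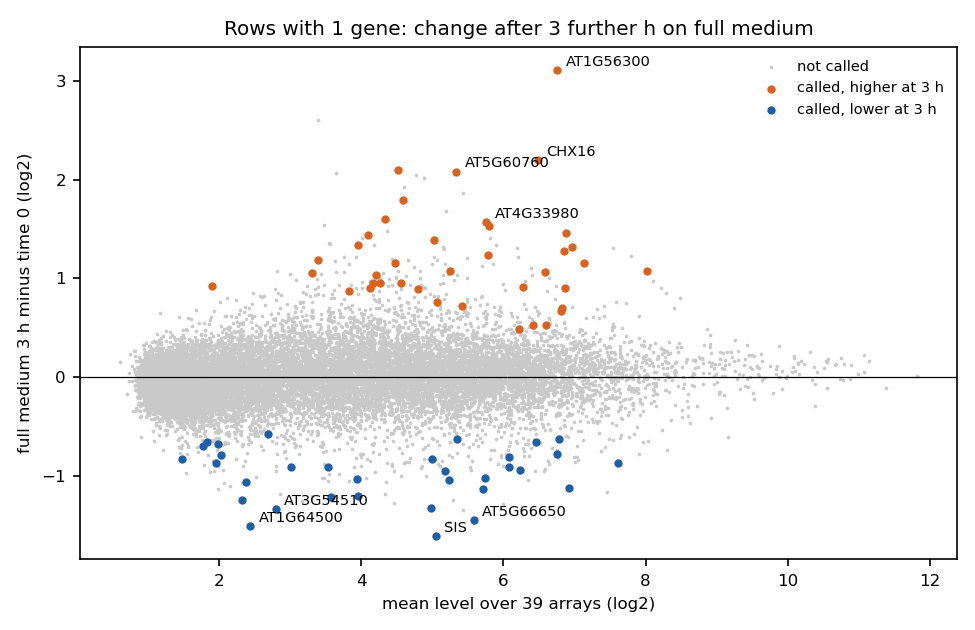
Each point is 1 row with exactly 1 gene, with its mean level over 39 arrays (log2) on the horizontal axis and its difference between full medium at 3 h and time 0 (log2) on the vertical axis. The 39 rises (orange) reach 3.11 for AT1G56300 and the 33 falls (blue) reach -1.60 for SIS, and both kinds are spread over dim and bright rows.

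The replicate numbers pair these arrays, since same-numbered arrays deviated together in all 3 pairs. A fit that took that number as a block called 274 rows (137 in each direction, 0.961%), all 164 among them, and 128 rows with 1 gene (0.764%), 60 higher and 68 lower, all 72 among them. For all 72 genes, each same-numbered pair of arrays differed in the called direction. For the 38 rises and 33 falls whose groups did not overlap, this follows from the missing overlap and is no further support. The pair of replicate 1 gave the largest of the 3 differences for 25 of the 39 rises and 22 of the 33 falls, against 44.6% of all rows with 1 gene, and the pair of replicate 2 gave the smallest for 22 and 23, against 40.2%. Without replicate 1 of time 0 the count of rows fell to 63, with 20 of the 72 genes kept, and without replicate 1 at 3 h to 69, with 25 kept. Without replicate 3 of time 0 it was 99, with 32 kept. A fit of the 6 arrays alone called 10 rows and 4 of the 72 genes, AT1G56300, CHX16, AT3G54510 and AT1G32970. When each of the 6 arrays was left out in turn, 15 of the 72 genes were called in all 6 fits, 12 rises and 3 falls. These 15 are given first, and those that the naming rule did not pick (AT1G11210, AT5G39410, WLIM1 and SCPL49) were added after their values were seen.

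Genes tied to the clock and to the evening phase gave the largest rise among rows with 1 gene. Of 35 listed genes 7 were measured, and 3 rose and 1 fell (0.233% and 0.197% over all rows with 1 gene), with a median of 0.01 over the 7 against -0.01 over all genes. The list was written with results of these data known, so this count is no test of the clock. AT1G56300 stood at 3.47, 3.65 and 3.86 in the time 0 arrays and at 7.16, 6.79 and 6.34 at 3 h. The groups were 2.48 apart at their closest, the paired differences were 3.69, 3.14 and 2.48, and the fitted difference was 3.11 (SE 0.26, adjusted p = 2.39e-09). GI (AT1G22770), the large nuclear protein of the evening arm of the clock, went from 7.10, 6.80 and 7.15 to 8.13, 7.93 and 8.23, a rise of 1.08 (SE 0.19, adjusted p = 0.00257). Its 3 paired differences of 1.03, 1.12 and 1.08 were nearly equal. AT4G33980, a cold-regulated gene with a clock-driven rhythm, went from 3.68, 3.07 and 3.33 to 4.90, 4.83 and 5.06 (1.57, SE 0.21, adjusted p = 3.03e-05). Its lowest array at 3 h was 1.15 above its highest at time 0. AT1G26790, a transcription factor gene of the Dof class, was the list member that fell, from 2.60, 1.87 and 2.08 to 1.29, 1.38 and 1.40 (-0.83, SE 0.17, adjusted p = 0.0125). Its level at 3 h was near the bottom of the scale, and the call was lost without time 0 replicate 1 (adjusted p = 0.222) or replicate 1 at 3 h (0.0969). The 3 members without a call, COR27, AT1G69570 and AT5G52660, stood at -0.11, 0.01 and -0.07.

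The second largest rise among rows with 1 gene was that of CHX16, also called in all 6 fits. CHX16 (AT1G64170), a member of the cation/H+ exchanger family, went from 4.09, 4.32 and 4.58 to 6.80, 6.28 and 6.49 (2.20, SE 0.32, adjusted p = 0.000169). The groups were 1.70 apart at their closest, and the other 8 cation/H+ exchangers measured were not called and stood between -0.51 and 0.17. AT4G25310, of the oxygenases that use 2-oxoglutarate and iron, went from 2.11, 4.13 and 2.28 to 4.60, 4.62 and 4.66 (1.79, SE 0.30, adjusted p = 0.00101). Its time 0 arrays were uneven, with replicate 2 near the 3 h level and the others well below it. AT5G39410, of the saccharopine dehydrogenase family, went from 4.02, 4.29 and 4.06 to 5.30, 5.23 and 5.05 (1.07, SE 0.14, adjusted p = 1.98e-05). SCPL49 (AT3G10410), a serine carboxypeptidase-like protein, had the smallest rise of the 12, from 6.02, 6.02 and 5.81 to 6.76, 6.72 and 6.49 (0.70, SE 0.13, adjusted p = 0.00276), and its groups were still 0.47 apart at their closest.

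A further 5 rises were called in all 6 fits. AT5G44910, which encodes a protein with the TIR domain known from immune receptors, went from 4.04, 4.79 and 4.06 to 6.07, 5.49 and 5.91 (1.53, SE 0.22, adjusted p = 0.000174). WNK9 (AT5G28080), of a kinase family whose catalytic lysine sits in an unusual place, went from 2.83, 2.51 and 3.11 to 3.93, 4.36 and 4.50 (1.44, SE 0.22, adjusted p = 0.000362). In both genes the groups were clear of each other, by 0.70 and 0.82. AT5G23575, of the CLPTM1 family of membrane proteins, went from 5.76, 5.93 and 5.57 to 7.30, 6.97 and 6.83 (1.28, SE 0.14, adjusted p = 7.69e-07). WLIM1 (AT1G10200), which binds and bundles actin filaments, went from 6.29, 6.08 and 5.85 to 7.11, 7.01 and 6.80 (0.90, SE 0.13, adjusted p = 0.000112). Both were lowest in replicate 3 of each group. AT1G11210, which encodes a protein with a domain of unknown function, went from 2.07, 1.91 and 2.13 to 3.12, 3.20 and 3.33 (1.18, SE 0.17, adjusted p = 0.000113), a low level in both groups.

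The falls called in all 6 fits were 3. AT3G54510, of a family related to the plant channels that open under osmotic stress, went from 4.16, 4.29 and 4.39 to 2.95, 2.96 and 2.93 (-1.33, SE 0.17, adjusted p = 1.86e-05). Its 3 arrays at 3 h were nearly equal. AT2G16980, of the major facilitator transporters, went from 5.09, 4.91 and 4.96 to 3.94, 3.78 and 3.62 (-1.20, SE 0.21, adjusted p = 0.00253). AT5G66650, of the family of the mitochondrial calcium uniporter, went from 7.09, 6.35 and 6.55 to 4.62, 5.65 and 5.38 (-1.45, SE 0.25, adjusted p = 0.00181). Replicate 1 held both its highest value at time 0 and its lowest at 3 h, and its paired differences were -2.47, -0.70 and -1.17.

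**Figure D2:**
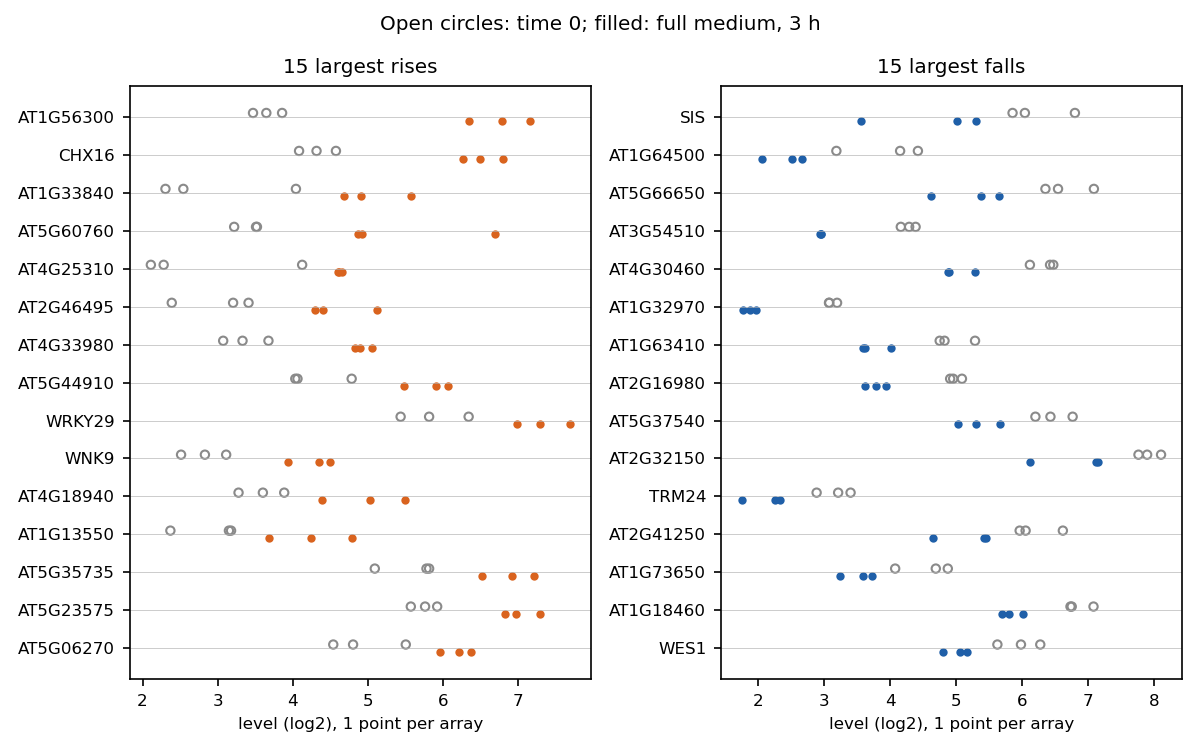
Levels (log2) of the 15 largest rises and 15 largest falls in each of the 3 time 0 arrays (open circles) and the 3 arrays of full medium at 3 h (filled circles), 1 point per array. For each gene the filled points lie wholly to 1 side of the open points, by wide gaps for AT1G56300 and CHX16 and by narrow ones for AT1G73650 and AT5G06270.

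The other large rises lost their call without at least 1 array. In the 6 fits the differences were 1.24 to 1.70 for WRKY29, 0.89 to 1.34 for WRKY22 and 1.03 to 1.51 for AT5G06270. The groups of these genes did not overlap, so leaving out 1 array could not reverse their sign, and the kept sign is no further support. WRKY29 (AT4G23550) and WRKY22 (AT4G01250), transcription factors that act in immune signalling, were the 2 of 7 measured WRKY genes that were called, where 0.233% of rows with 1 gene were called higher. WRKY29 went from 5.82, 6.34 and 5.44 to 7.30, 6.99 and 7.70 (1.46, SE 0.33, adjusted p = 0.0305), and its call was lost without time 0 replicate 1 or 3 (adjusted p = 0.169 and 0.193) or replicate 1 or 3 at 3 h (0.142 and 0.143). WRKY22 went from a tight 3.58, 3.58 and 3.49 to a wider 5.25, 4.52 and 4.34 (1.16, SE 0.26, adjusted p = 0.03), and was not called without time 0 replicate 1, 2 or 3 (adjusted p = 0.137, 0.0617 and 0.115) or replicate 1 or 2 at 3 h (0.305 and 0.0515). The other 5 WRKY genes stood between -0.44 for WRKY47 and 0.04 for WRKY42. AT5G35735, of a family of auxin-responsive membrane proteins with a cytochrome b561 domain, rose by 1.32 (SE 0.29), a call lost without time 0 replicate 1 (adjusted p = 0.279) or replicate 1 or 3 at 3 h (0.137 and 0.131). AT5G06270, a small protein that acts as a transcriptional repressor, rose by 1.24 (SE 0.24) and was not called without time 0 replicate 1 or 3 (adjusted p = 0.128 and 0.0524).

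AT1G33840, of the LURP-one-related proteins, had the largest SE of the 39 rises. It stood at 2.54, 4.04 and 2.31 at time 0, where replicate 2 was far above the others, and at 4.69, 4.91 and 5.58 at 3 h (2.09, SE 0.48, adjusted p = 0.0323). Its paired differences were 2.15, 0.87 and 3.27, and the call held in 1 of 6 fits that left an array out, being lost without time 0 replicate 1 or 3 (adjusted p = 0.25 and 0.207) or replicate 1, 2 or 3 at 3 h (0.0869, 0.0765 and 0.146). AT5G60760, of the nucleoside triphosphate hydrolases with a P-loop, went from 3.52, 3.51 and 3.22 to 6.70, 4.93 and 4.88 (2.08, SE 0.43, adjusted p = 0.0125), with replicate 1 at 3 h far above the other arrays. It lost its call without time 0 replicate 1 or 3 (adjusted p = 0.0578 and 0.0664) or replicate 1 at 3 h (0.208). AT2G46495, a RING-type protein of the kind that acts in ubiquitination, went from 2.39, 3.41 and 3.21 to 5.12, 4.40 and 4.30 (1.60, SE 0.31) and was not called without time 0 replicate 1 (adjusted p = 0.131) or replicate 1 at 3 h (0.116). AT4G18940, of the RNA ligase and cyclic phosphodiesterase family, rose by 1.38 (SE 0.28), with no call without time 0 replicate 1 or 3 (adjusted p = 0.0551 and 0.0755) or replicate 1 at 3 h (0.159). AT1G13550 rose by 1.34 (SE 0.32). That call was lost without time 0 replicate 1 or 3 (adjusted p = 0.37 and 0.0639) or replicate 1 or 3 at 3 h (0.167 and 0.195), after quantile normalization (0.0505) and with array weights (0.0827).

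Among the smaller rises were those of DPE1, a plastid enzyme of starch breakdown (0.89), AT2G29995, a gene of a sulfated-tyrosine peptide (0.91), AT5G62350, of the invertase and pectin methylesterase inhibitors (0.95), and the mitogen-activated protein kinase gene ATMPK8 (0.53). These 4 were chosen after their values were seen. They were called in 3, 3, 4 and 3 of the 6 fits that left an array out, and each lost its call without time 0 replicate 1 (adjusted p = 0.24, 0.112, 0.111 and 0.24).

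The other large falls lost their call without at least 1 array. SIS (AT5G02020), a serine-rich protein gene known from salt treatment, went from 6.80, 5.86 and 6.04 to 3.56, 5.31 and 5.02 (-1.60, SE 0.38, adjusted p = 0.0399). Its paired differences of -3.24, -0.55 and -1.02 show that replicate 1 gave most of the fall, and the call was lost without time 0 replicate 1 or 3 (adjusted p = 0.347 and 0.0804) or replicate 1 at 3 h (0.379) and with array weights (0.0928). AT1G64500 went from 4.15, 3.18 and 4.42 to 2.06, 2.51 and 2.66 (-1.51, SE 0.29, adjusted p = 0.00651) and lost its call without time 0 replicate 1 or 3 (adjusted p = 0.0682 and 0.069) or replicate 1 at 3 h (0.0869). AT4G30460, of the glycine-rich proteins, fell by 1.32 on the log2 scale (SE 0.28) and was not called without time 0 replicate 1 or 2 (adjusted p = 0.119 and 0.0589) or replicate 1 or 3 at 3 h (0.129 and 0.076). AT1G32970, a subtilisin-like protease gene, went from 3.07, 3.19 and 3.08 to 1.87, 1.97 and 1.78 (-1.24, SE 0.29, adjusted p = 0.0349). It was among the tightest genes in both groups and was called in the fit of the 6 arrays alone (adjusted p = 0.0469), but in none of the 6 fits that left an array out (adjusted p from 0.0772 to 0.164).

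AT5G37540, an aspartyl protease gene, went from 6.77, 6.20 and 6.43 to 5.31, 5.67 and 5.03 (-1.13, SE 0.25), a call lost without time 0 replicate 1 or 3 (adjusted p = 0.24 and 0.0752) or replicate 1 or 3 at 3 h (0.142 and 0.134). The hydrolase genes of the haloacid dehalogenase family, AT2G32150 and AT2G41250, fell together. AT2G32150 went from 8.11, 7.77 and 7.90 to 6.12, 7.12 and 7.16 (-1.12, SE 0.25), and AT2G41250 fell by 1.03 on the log2 scale (SE 0.22). In both, replicate 1 was the lowest array at 3 h. The first lost its call without time 0 replicate 1 or 3 (adjusted p = 0.176 and 0.0664) or replicate 1 at 3 h (0.28), and the second without time 0 replicate 1 or 3 (adjusted p = 0.0531 and 0.163) or replicate 1 at 3 h (0.251). AT1G18460, of a lipase family, went from 7.08, 6.75 and 6.73 to 6.01, 5.80 and 5.70 (-1.02, SE 0.21), with nearly equal paired differences of -1.08, -0.95 and -1.03. It was not called without time 0 replicate 1 (adjusted p = 0.131) or replicate 3 at 3 h (0.0592). AT1G63410 went from 5.29, 4.75 and 4.82 to 4.02, 3.59 and 3.61 (-1.22, SE 0.26), with its call lost without time 0 replicate 1 (adjusted p = 0.183) or replicate 2 or 3 at 3 h (0.0772 and 0.0703). AT1G73650 fell by 1.03 on the log2 scale (SE 0.25). Its groups were 0.35 apart, and it was not called without time 0 replicate 1 or 3 (adjusted p = 0.279 and 0.259) or replicate 1, 2 or 3 at 3 h (0.166, 0.0678 and 0.183), nor with array weights (0.0536). TRM24 (AT5G51850), named for a motif that recruits the microtubule protein TON1, fell by 1.05 on the log2 scale (SE 0.23), a call lost without time 0 replicate 1 or 3 (adjusted p = 0.183 and 0.0729) or replicate 1 at 3 h (0.205).

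The smaller falls ran from -0.94 for AT4G21740 to -0.58 for AT5G13090. They include AT5G15950, an S-adenosylmethionine decarboxylase gene of polyamine synthesis (-0.86), AT2G37650, of the GRAS family of regulators (-0.91), AT1G66760, of the MATE transporters (-0.83), the universal stress protein gene PHOS34 (-0.65), the organic cation transporter gene OCT4 (-0.62) and the lectin gene JAL33 (-0.70). These were chosen after their values were seen. They were called in 3, 2, 1, 3, 3 and 0 of the 6 fits that left an array out, and none of the 6 genes was called without time 0 replicate 1 (adjusted p = 0.13, 0.146, 0.0578, 0.309, 0.124 and 0.0907).

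The measured genes of the auxin response list were mostly lower, and 1 of them passed. Of 43 listed genes 14 were measured and 1 was called lower, where 0.197% of rows with 1 gene were called lower. Of the 14 differences 3 were above 0, and the median was -0.29, against -0.01 over all genes and 7862 of 16552 genes above 0. WES1 (AT4G27260, GH3.5), an enzyme that joins auxin to amino acids, went from 5.63, 6.28 and 5.98 to 4.81, 5.17 and 5.05 (-0.95, SE 0.19, adjusted p = 0.00818). All 3 arrays at 3 h were below the lowest at time 0, and the call was lost without time 0 replicate 2 (adjusted p = 0.0572) or replicate 1 at 3 h (0.0982). Its relative GH3.3 stood at 3.04, 4.51 and 3.23 at time 0 and 2.01, 2.74 and 2.50 at 3 h. Each pair went down (-1.03, -1.77 and -0.73), but time 0 was uneven and the difference of -1.18 (SE 0.41) did not pass (adjusted p = 0.262). The others without a call included LBD29, a factor of lateral root formation (-0.90, high in replicate 2 of time 0 alone), GH3.1 (-0.51), GH3.17 (-0.37) and LBD16 (-0.37), while GH3.4, IAA20 and IAA30 stood at 0.07, 0.07 and 0.15. The log2 levels of the 14 genes added up to 48.3 to 51.7 in the time 0 arrays and 44.5 to 45.3 at 3 h. Such a sum of log2 values is not the log2 of a summed expression, and its difference was not tested. The genes that fell most in it were GH3.3, WES1 and LBD29, of which WES1 alone was called. This list too was written with results of these data known, so its count, median and sum are no test of the auxin response.

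**Figure D3:**
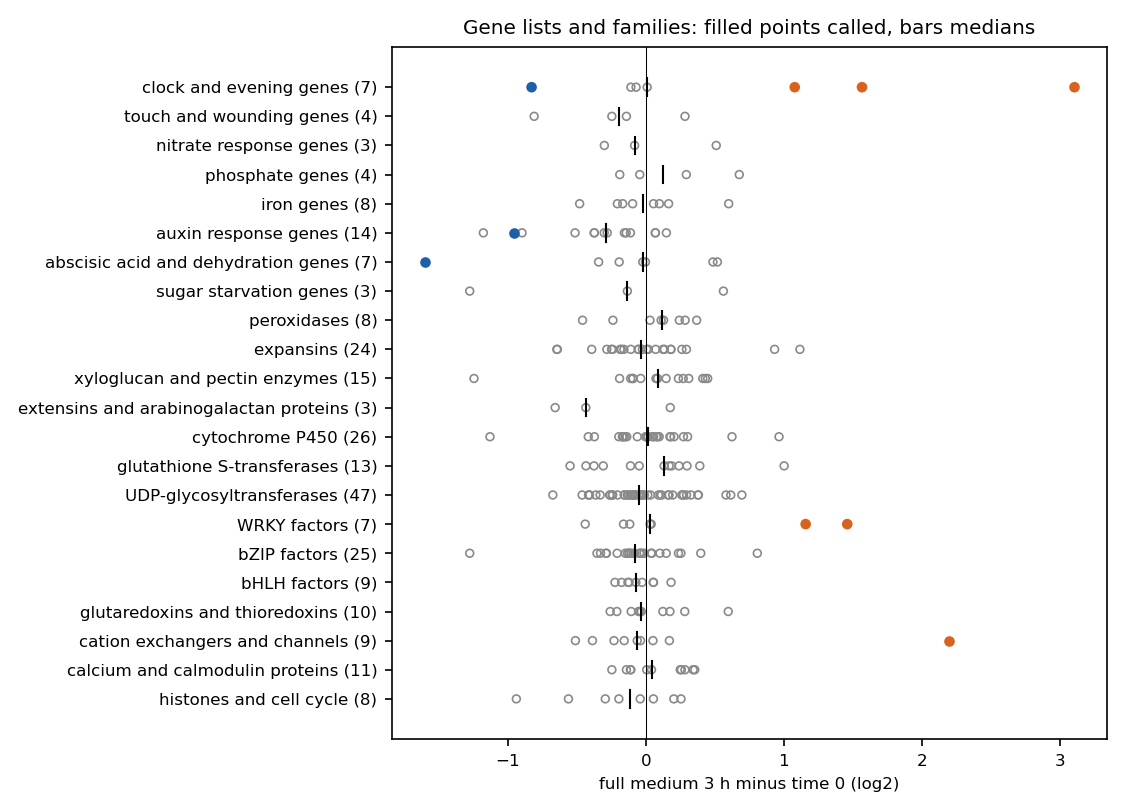
Differences between full medium at 3 h and time 0 (log2) for the measured genes of each list or family with 3 or more measured members (number in brackets), with filled points for called genes and a bar at the median. Called genes stand in the clock, auxin, abscisic acid, WRKY and cation exchanger rows, and the other medians lie between -0.43 and 0.13.

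The touch, phosphate, iron, nitrate and sulfur lists had few measured genes and gave no call, which at 0.430% of rows with 1 gene called says nothing about the lists. Of 37 touch and wounding genes 4 were measured, the zinc finger gene STZ at -0.81 (adjusted p = 0.613), the calmodulin-like genes CML37 and CML38 at -0.14 and 0.28, and AT1G76640 at -0.25. STZ stood at 7.09, 7.90 and 7.84 at time 0 and 6.35, 6.21 and 7.83 at 3 h, so that replicate 3 was level while replicates 1 and 2 were lower. Of 24 phosphate genes 4 were measured. LPR2, a ferroxidase of the root tip's phosphate response, stood at 4.90, 5.01 and 5.18 and 5.49, 5.67 and 5.97, higher in each pair (0.68, SE 0.20, adjusted p = 0.154), and its relative LPR1 at -0.19. Of 29 iron genes 8 were measured, with a median of -0.02. The iron-signalling peptide gene IMA1 (AT1G47400) stood at -0.17 and AT1G47395 at 0.60, both at low levels. In the sulfur list, AT1G04770, a relative of the sulfur-deficiency gene SDI1, had 0.95 (adjusted p = 0.099). In the abscisic acid and dehydration list, by contrast, SIS fell as given above. Of 23 genes 7 were measured, and the cold and drought genes COR47 and DREB2C stood at 0.49 and 0.52 without a call.

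Counts for larger families are read against the 0.430% of rows with 1 gene that were called, so a count of 0 says nothing about them. Without the block, none was called among 24 expansins (median -0.04), 8 peroxidases (0.12), 26 cytochrome P450 genes (0.01), 13 glutathione S-transferases (0.13), 47 UDP-glycosyltransferases (-0.05), 25 bZIP factors (-0.08), 15 xyloglucan and pectin enzymes (0.08) or 11 calcium and calmodulin proteins (0.04). Some of their members had differences as large as called genes but uneven arrays. The expansin EXPB3 had 1.12 (SE 0.61, adjusted p = 0.597), with 3.65, 3.80 and 4.18 at time 0 and 6.07, 4.75 and 4.16 at 3 h. The xyloglucan enzyme gene XTH26 had -1.24 (SE 0.62, adjusted p = 0.534), with 7.63, 5.87 and 5.21 and 5.92, 4.62 and 4.44. EXPB3 was high in replicate 1 at 3 h alone, and XTH26 was highest in replicate 1 of both groups, so that the range within a group exceeded the difference. EXPB3 and XTH26 were chosen after their values were seen.

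With the replicate number as a block, 55 genes were called in addition, 21 higher and 34 lower, and those named below were picked once their values had been seen. The largest fall was that of AT3G56290 (-1.47, SE 0.33, adjusted p = 0.0205 with the block and 0.107 without). The factor gene bZIP58 stood at 7.40, 6.25 and 6.16 at time 0 and 5.98, 5.50 and 4.51 at 3 h, lower in each pair with a narrow gap between the groups (-1.28, adjusted p = 0.0181 and 0.131). The cytochrome P450 gene CYP718 stood at 4.06, 2.93 and 2.20 and then 2.56, 1.70 and 1.54, lower in each pair with overlapping groups (-1.13, adjusted p = 0.0413 and 0.179). With the block, bZIP58 and CYP718 were thus 1 of 25 bZIP factors and 1 of 26 cytochrome P450 genes called (0.406% of rows with 1 gene called lower). Glutathione reductase gene GR1 had -0.73 (0.0272 and 0.114). Among the rises, AT5G48430 had 2.04 (0.023 and 0.0519), AT3G16560 1.19 (0.00281 and 0.0749) and the pyruvate decarboxylase gene PDC2, of ethanolic fermentation, 1.05 (0.0205 and 0.0631). PDC2 stood at 3.81, 3.22 and 3.57 and 4.58, 4.49 and 4.67, and its groups did not overlap. PORB, which encodes a chlorophyll-synthesis enzyme of leaves, stood at 2.26, 1.86 and 3.69 at time 0 and 3.29, 4.04 and 6.27 at 3 h (1.93, adjusted p = 0.0229 and 0.676). Its arrays overlapped, and as for RCA and LHCB4.1 above, replicate 3 was the highest of each group. The part of shoot RNA in this gene's change was not tested.

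Few of the early changes differed between 3 h and the later times on full medium. Between 3 and 6 h limma called 11 rows (0.0386%, 7 higher, 0.0246%, and 4 lower, 0.0140%) and between 3 and 9 h 33 (0.116%, 20 higher, 0.0702%, and 13 lower, 0.0456%), or 66 (0.232%) with the replicate block, where the numbers also pair the arrays. An unadjusted p under 0.05 was reached by 1776 and 1534 rows. Of the 72 genes, AT4G33980 was called in both and AT1G17665 in the second. AT4G33980 went on rising, from 4.93 ± 0.12 (SD, n = 3) at 3 h to 6.28 ± 0.06 at 6 h and 6.57 ± 0.21 at 9 h, differences from 3 h of 1.36 (SE 0.21, adjusted p = 0.0019) and 1.64 (SE 0.21, adjusted p = 1.88e-05). AT1G17665 went from 3.44 ± 0.15 to 4.26 ± 0.12 at 9 h (0.83, SE 0.17, adjusted p = 0.039). It had been called as a rise of 0.88 at 3 h, a call lost without time 0 replicate 3 (adjusted p = 0.115) or replicate 1 at 3 h (0.069). No other of the 72 was called in either comparison, which does not show that the others held their level.

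AT1G56300 stood at 6.77 ± 0.41 (SD, n = 3), 7.41 ± 0.36 and 6.91 ± 0.28 at 3, 6 and 9 h, and GI at 8.10 ± 0.16, 8.33 ± 0.16 and 8.03 ± 0.05. Both had their highest mean at 6 h, but neither differed from 3 h by the test (0.64 and 0.24, adjusted p = 0.713 and 0.91). AT3G54510 continued down in its means, from 2.95 ± 0.01 to 2.79 ± 0.04 and 2.43 ± 0.18, without a call between 3 and 9 h (-0.52, adjusted p = 0.466). WRKY22 stood at 4.70 ± 0.48, 3.86 ± 0.15 and 4.28 ± 0.12, so that its means at 6 and 9 h lay below that at 3 h (differences of -0.84 and -0.43, adjusted p = 0.539 and 0.974). Against the same time 0 arrays the 39 rises had a median difference of 1.07 at 3 h, 1.08 at 6 h and 1.09 at 9 h, and the 33 falls -0.91, -0.86 and -0.94. These medians share the time 0 arrays that took part in choosing the genes and are given side by side as a description.

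**Figure D4:**
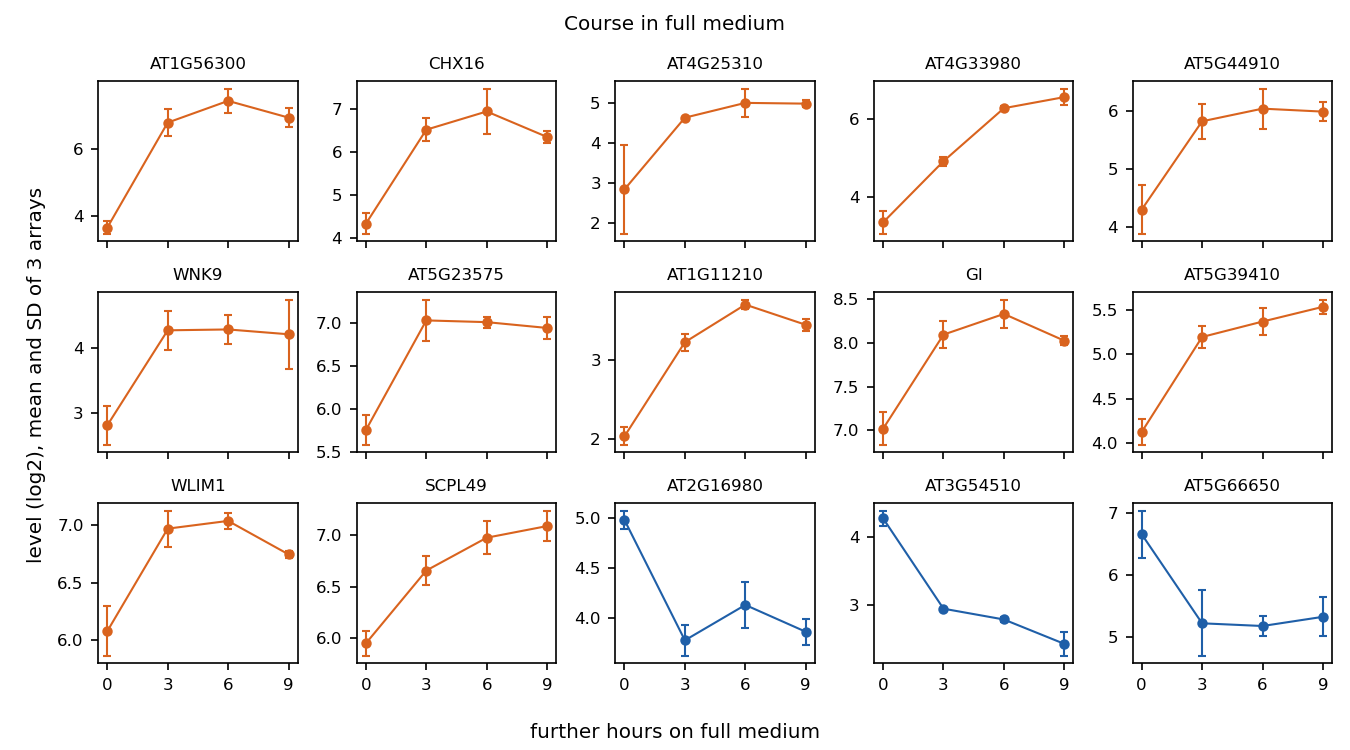
Mean level (log2, points) and SD (bars) of 3 arrays at time 0 and after 3, 6 and 9 h on full medium, for the 12 rises (orange) and 3 falls (blue) called in all 6 fits that left an array out. Vertical axes differ between panels and do not start at 0. AT4G33980 climbs through 9 h. None of the other genes shown was called at 6 or 9 h against 3 h, which does not show that they held their level.

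Values after 3 h on the media lacking nutrients stand beside those on full medium, since the same hours and the same start are common to all. The mean of the media lacking phosphate, iron or both at 3 h differed from full medium at 3 h in 0 of 28501 rows by limma (0.00%, 969 with an unadjusted p under 0.05). Taken singly, the media without phosphate and without iron gave 0 rows each and the medium without both gave 7 (0.0246%), none of them among the 72 genes. A missing call does not show that the media acted alike. Against the same time 0 arrays, AT1G56300 stood 3.06 higher without phosphate, 3.16 without iron and 3.48 without both, beside 3.11 in full medium. CHX16 stood 2.08, 2.97 and 2.29 higher beside 2.20, GI 0.86, 1.13 and 1.20 beside 1.08, and AT3G54510 -1.23, -1.32 and -1.36 beside -1.33. These differences share their time 0 arrays, so their likeness is no independent support. Other called genes were less alike, and 2 were picked after their values were seen. AT1G50790 stood 0.50, 0.32 and 0.07 higher beside 0.92, and AT4G17900 had -0.25, -0.23 and 0.002 beside -0.62. WRKY22 had 1.58, 1.59 and 1.73 beside 1.16, and AT5G66650 had -0.66, -1.41 and -0.78 beside -1.45. Its difference from full medium was 0.49 over the 3 deprived media (adjusted p = 1). Over the 39 rises the median was 1.16 without phosphate, 1.11 without iron and 1.04 without both, and over the 33 falls -0.73, -0.78 and -0.78, beside 1.07 and -0.91 in the comparison that chose the genes.

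**Figure D5:**
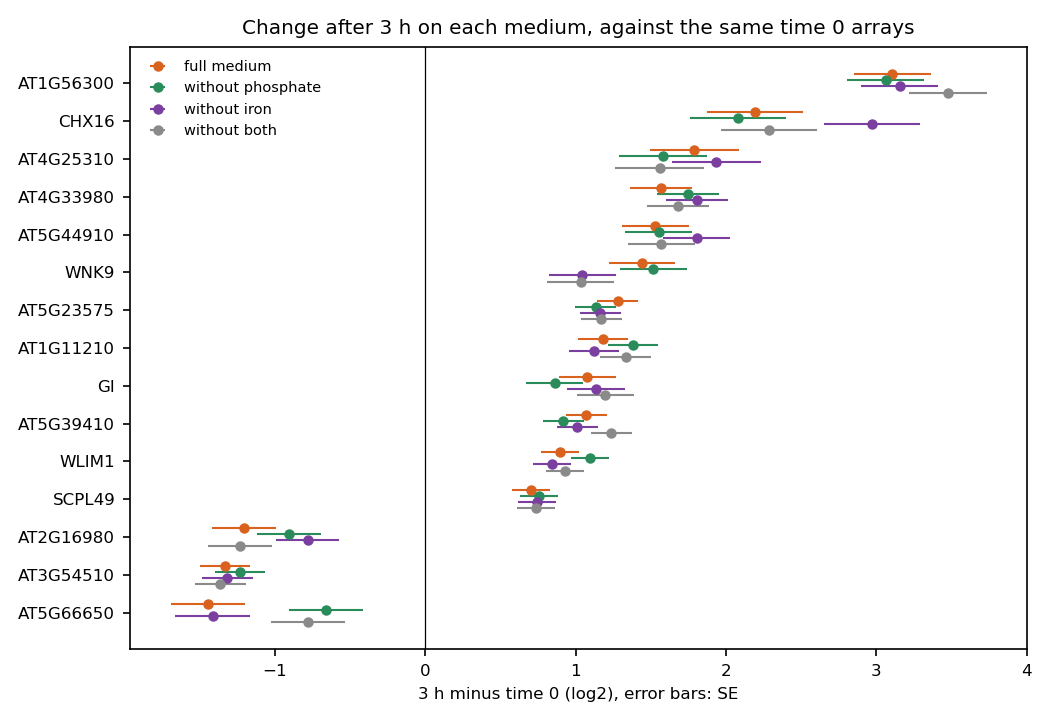
Difference from the same 3 time 0 arrays (log2, points) with its SE (bars) after 3 h on full medium, without phosphate, without iron and without both, for the 15 genes called in all 6 fits that left an array out. AT1G56300 lies farthest from 0 on each of the 4 media, and AT5G66650 spans -1.45 in full medium to -0.66 without phosphate.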

How the data were processed

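The values analysed are log2 expression levels that the authors deposited in 1 table, with 1 value per array and row and no missing value. Per the labels' protocols, biotin-labelled targets made from 100 ng of total root RNA were hybridised to whole-transcript arrays. GCRMA, a background correction that uses probe sequence followed by normalization across arrays, is named in the submitters' processing notes, as are Transcriptome Analysis Console and Affymetrix Expression Console. Versions and genome build are not given in the sources used here.

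Rows were named through the platform annotation, and 16601 of the 16746 rows with 1 gene were updated through RefSeq (TAIR10.1, names only). Limma 3.58.1 (lmFit and eBayes, two-sided, under R 4.3.3) fitted 1 mean for each group over all 39 arrays, which leaves 26 residual degrees of freedom, with no filter on low values. P-values were adjusted over all 28501 rows with the Benjamini-Hochberg method and called under 0.05. The fit was tested on simulated data. The number of arrays limits the precision.

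Genes named are the 15 largest called rises and the 15 largest called falls, up to 4 called members of each of 14 gene lists and 30 keyword families, and RCA, LHCB4.1, GI, LPR1, LPR2, IMA1, GH3.3 and WES1 in any case. Other genes were named after their values were seen. The comparison, lists and members were chosen with earlier results of these data known, and 60 of 314 listed genes were measured. A keyword that also matched clone names was corrected after the matches were seen.

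The replicate numbers pair the time 0 and 3 h arrays. Deviations from the group means correlated by 0.295, 0.230 and 0.371 in the same-numbered pairs, and over the whole series 37 of 39 arrays resembled their own number most. Between 9 and 3 h the correlations were 0.113, 0.124 and 0.428, and between 6 and 3 h 0.0689, 0.205 and 0.379, where the first falls short of 0.1. Alternatives were the replicate number as a block, the compared groups alone, dim rows left out, quantile normalization, array weights and each array left out.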

Additional observations from a re-analysis of the deposited data

How the results depend on the processing

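For full medium at 3 h against time 0, 164 rows were called, 274 with the replicate block and 10 in a fit of the compared arrays alone. The count was 181 with the dim rows left out, 179 after quantile normalization and 206 with array weights, and 63 to 212 when 1 array was left out. The dim rows left out held 3 of the 39 rises and 12 of the 33 falls, which that fit did not test. Between 6 and 3 h the count of 11 became 14 with the replicate block, 0 in the fit of the compared arrays alone by limma (1173 with an unadjusted p under 0.05) and 18 with array weights, and 4 to 14 with 1 array left out (4 and 5 without replicates 1 and 2 at 6 h, 5 and 7 without replicates 2 and 3 at 3 h). Between 9 and 3 h the count of 33 became 66 with the replicate block, 8 in the fit of the compared arrays alone and 94 with array weights, and 18 to 24 with 1 array left out (18 and 21 without replicates 2 and 3 at 9 h, 21 without replicate 3 at 3 h). Deprived against full medium at 3 h gave 0 by limma under each of these settings and without any single array (969 with an unadjusted p under 0.05 over all arrays, 952 in the fit of the compared arrays alone). For the 72 called genes and 6 others named by the rule, 840 values under an alternative were computed. Of these 555 stayed on the same side of the threshold and 285 lost the call, and no difference of the 72 called genes reversed. For the 38 rises and 33 falls whose groups did not overlap, leaving out 1 array could not reverse the difference. The block and the fit of the compared arrays alone leave each difference as it was. The missing reversals are therefore no further support. For the 6 others, which had no call to lose, the count covers the threshold alone. The sign of a small difference, such as that of RCA, can change when an array is left out. The block ended no call of the 72 genes. The fits of the compared arrays alone have fewer arrays to estimate the spread, and other causes were not tested. Levels below the first quartile of time 0 values (1.76) limit what can be read from dim rows, and 3 arrays in each group limit all of it.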

Other observations

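The largest called rise and the largest called fall of the comparison lay in rows with no gene in the annotation used here. Of the 164 called rows 92 had no single gene (50 higher and 42 lower), and 91 of these had none at all. Transcript cluster 13361823, chosen like the others here after its value was seen, stood at 7.38, 6.65 and 7.19 in replicates 1 to 3 of time 0 and at 2.89, 2.63 and 3.25 at 3 h. Its difference was -4.15 (SE 0.24, 17.7-fold lower, limma adjusted p = 4.23e-13), beyond that of any row with 1 gene, and its means were 2.26 at 6 h and 2.29 at 9 h. Cluster 13405973 stood at 7.93, 6.94 and 7.66 at time 0 and between 3.71 and 4.58 at 3 h (-3.38, SE 0.24, 10.4-fold lower, adjusted p = 1.25e-10), with means of 2.72 and 2.13 at 6 and 9 h. In both, the groups were clear of each other in every array.

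Among rises, cluster 13350088 went from 2.11, 2.60 and 2.57 to 6.06, 6.13 and 6.48 (3.80, SE 0.18, 13.9-fold, adjusted p = 3.6e-15), and cluster 13530385 from 4.54, 4.39 and 4.48 to 7.31, 7.20 and 7.36 (2.82, SE 0.22, 7.04-fold, adjusted p = 7.4e-10). Their means at 6 and 9 h were 6.70 and 6.12, and 7.56 and 7.13. These 4 clusters were called in all 6 fits that left an array out. Of the rows without a single gene, 18 of the 50 rises and 11 of the 42 falls were called in all 6, beside 12 of 39 and 3 of 33 among rows with 1 gene. The rises ran from 0.60 to 3.80 and the falls from -0.54 to -4.15.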
